A study of Homo sapiens with 2 samples.

Results

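The urokinase and plasminogen activation system was examined as 5 genes, PLAU, PLAUR, PLAT, SERPINE2 and SERPINB2, through every probe set that the platform annotation gave to exactly one of these symbols. This gave 8 of the 54675 probe sets of the array, 2 for PLAU, 3 for PLAUR, 1 for PLAT and 2 for SERPINE2. The genes were chosen by symbol, with their log2 ratios between these 2 arrays already known. In all, 19775 genes had a probe set of their own. No probe set was listed under SERPINB2 alone, and that gene was not analysed here. The cells were HCC15, an established human lung cancer line, in medium with 5% serum. One culture received an siRNA that targets CTNNB1, which encodes beta-catenin, and the other received a control siRNA whose target the labels do not give and whose sample title carries the word Tax. RNA was taken 48 h after transfection, and the series title places the line among CTNNB1-mutated lung cancers. Each group was 1 array, so each value below is a single MAS5 signal intensity, a summary of the brightness of a probe set, without a replicate. There is therefore no test between the groups, and a difference between the arrays also holds any difference between the cultures and hybridisations. In bulk RNA, fewer cells making a transcript and less of it per cell cannot be told apart.

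Plasminogen is a circulating proenzyme that becomes plasmin, a protease that dissolves fibrin and cleaves matrix proteins and latent growth factors. Urokinase, encoded by PLAU, and tissue plasminogen activator, encoded by PLAT, make that cut. PLAUR encodes the urokinase receptor, a protein held on the cell surface by a lipid anchor, which concentrates urokinase at the membrane. SERPINE2 (protease nexin-1) and SERPINB2 (plasminogen activator inhibitor type 2) are serpins, inhibitors that trap a protease in a covalent complex. In carcinomas, the urokinase system is known for its link to invasion.

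The promoters of PLAU and PLAUR are shown because these genes had the highest ratios among the members, and each sequence covers the 250 bases before a transcription start in RefSeq (GRCh38.p14). Capitals mark the letters of 2 hexamers of the TCF/LEF factors that beta-catenin binds, CTTTGA and CTTTGT, and of the AP-1 heptamer TGANTCA, searched on both strands.
PLAU upstream start, chr10:73910360-73910609, plus strand: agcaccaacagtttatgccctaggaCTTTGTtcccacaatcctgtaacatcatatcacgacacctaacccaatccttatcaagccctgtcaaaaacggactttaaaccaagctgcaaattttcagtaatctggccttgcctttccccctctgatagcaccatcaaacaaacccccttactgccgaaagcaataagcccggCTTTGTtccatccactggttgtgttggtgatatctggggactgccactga
PLAU downstream start, chr10:73910882-73911131, plus strand: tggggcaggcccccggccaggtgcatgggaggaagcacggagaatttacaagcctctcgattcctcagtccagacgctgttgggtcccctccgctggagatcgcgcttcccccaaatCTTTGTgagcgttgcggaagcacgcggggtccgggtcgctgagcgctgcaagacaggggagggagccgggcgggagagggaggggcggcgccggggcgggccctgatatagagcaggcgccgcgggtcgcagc
PLAUR, chr19:43670170-43670419, minus strand: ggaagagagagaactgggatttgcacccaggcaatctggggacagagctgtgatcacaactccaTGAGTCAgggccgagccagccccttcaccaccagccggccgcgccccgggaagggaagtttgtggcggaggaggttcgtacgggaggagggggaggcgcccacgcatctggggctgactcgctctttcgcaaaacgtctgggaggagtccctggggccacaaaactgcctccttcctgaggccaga
The upstream PLAU promoter held CTTTGT at 225 to 220 and at 50 to 45 bases before the start. The downstream one held CTTTGT once, at 133 to 128 bases before the start, and 3 GC boxes (GGGCGG) between 66 and 35. CTTTGA was found in none of the 3 windows. The PLAUR window held 1 AP-1 match, TGAGTCA, at 186 to 180 bases before its start, and neither TCF/LEF hexamer. No marked motif overlapped another. Among 35116 promoter windows of the same length, 13.7% held CTTTGT, 11.2% held CTTTGA, 22.8% held at least 1 of the pair, 6.57% held the AP-1 heptamer and 42.6% held a GC box. These are matches of letters, and no binding was measured.

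The knockdown was checked first on the targeted gene. The brightest CTNNB1 probe set (201533_at) read 339 on the CTNNB1 siRNA array and 1224 on the control array, which is 27.7% of the control. The other probe sets of the gene were at 51.0% (1554411_at) and 91.3% (223679_at) of the control. All 6 epithelial markers fixed for the cell check, KRT8, KRT18, KRT19, KRT7, EPCAM and CDH1, passed the signal filter used throughout. That filter was a mean of the 2 arrays at or above the median signal of 49.1. CDH1 read 594 with CTNNB1 siRNA and 939 with control siRNA, 63.2% of the control. The other epithelial markers were at 107% (KRT8) to 131% (EPCAM) of the control. Of 8 squamous markers, SOX2 passed at 41.6 on the CTNNB1 siRNA array and 60.1 on the control array, KRT5, KRT14, DSG3, DSC3 and PKP1 were under the filter, and TP63 and KRT6A had no probe set under their symbol alone. Of 5 lung adenocarcinoma markers, 3 passed, also at low signals. With CTNNB1 siRNA and control siRNA, NAPSA read 65.6 and 56.2, SFTPB 172 and 165, and SFTPC 191 and 107. NKX2-1 and SFTA3 were under the filter. The measured squamous keratin and desmosome markers were thus dim in a line whose labels call it squamous. Markers of other cell types were summed over the brightest probe set of each measured gene. The 4 leukocyte genes summed to 168 on the CTNNB1 siRNA array and 215 on the control array. The 5 fibroblast genes summed to 241 with CTNNB1 siRNA and 250 with control siRNA, and the 4 endothelial genes to 135 with CTNNB1 siRNA and 174 with control siRNA.

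PLAU, PLAUR and PLAT were higher with CTNNB1 siRNA, and SERPINE2 differed less. The brightest probe sets of PLAU, PLAUR and PLAT were 3.0-fold, 2.88-fold and 2.44-fold higher, and that of SERPINE2 was 1.45-fold higher. Of the 8 member probe sets, 7 passed the signal filter, 5 of these were at least 2-fold higher and 0 at least 2-fold lower. Over all 27151 probe sets that passed, 3.48% were at least 2-fold higher and 2.42% at least 2-fold lower. The members were chosen with results of this contrast known, so the comparison with these shares describes the choice as much as the genes. The median log2 ratio (CTNNB1 siRNA over control siRNA) was 1.53 over the 7 member probe sets and 0.14 over all that passed.

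**Figure D1:**
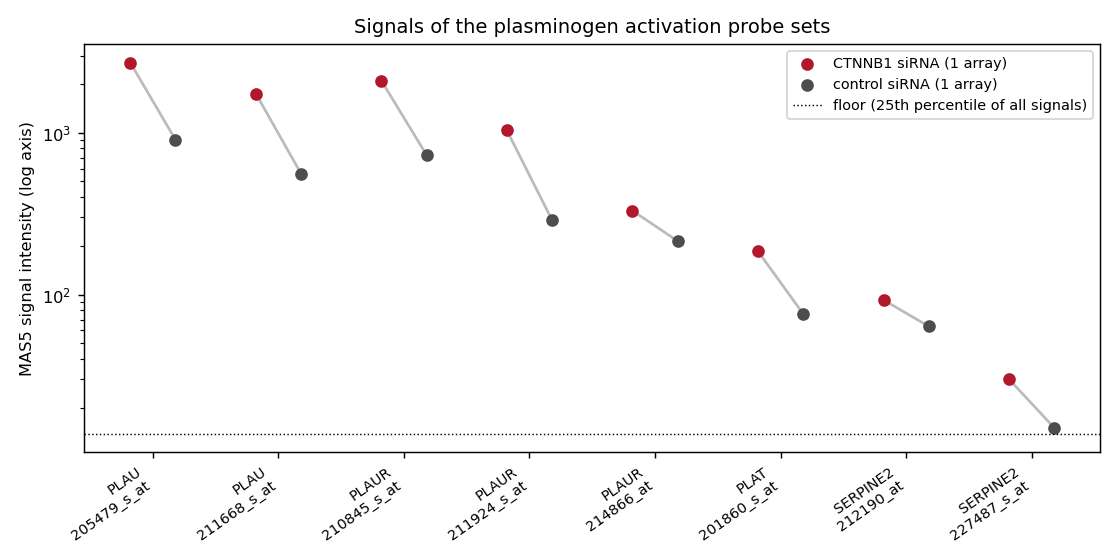
Signal intensity on a log axis of each of the 8 member probe sets on the CTNNB1 siRNA array (red, left) and the control siRNA array (grey, right), joined by a line, with the floor of 13.8 as a dotted line. Every line falls to the right, least steeply for 214866_at of PLAUR (330 against 214) and for 212190_at of SERPINE2 (92.5 against 63.6).

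Urokinase itself gave the closest match between probe sets. Probe set 205479_s_at of PLAU read 2717 on the CTNNB1 siRNA array, against 905 on the control array. The other, 211668_s_at, read 1747 with CTNNB1 siRNA and 559 with control siRNA. Both were thus brighter on the CTNNB1 siRNA array, by log2 ratios of 1.59 and 1.64, or 3.0-fold and 3.13-fold. The 0.06 between these ratios was smaller than the spread typical of probe sets of 1 gene, a pooled SD of 0.42 over 5791 genes, or 0.29 where the mean signal was at or above 209. That SD covers probe set error and differences between transcripts, not variation between cultures. Among the 5791 genes with at least 2 probe sets past the filter, PLAU was 1 of 19 (0.328%) in which all of them were at least 2-fold higher. Because PLAU was chosen with its ratio known, this share describes the choice as much as the gene. Names ending in _s_at mark probe sets that can read several transcripts, and both PLAU probe sets are of this kind. So are all member probe sets at least 2-fold higher, those of PLAUR and PLAT included. PLAUR 214866_at and SERPINE2 212190_at, which passed the filter but stayed under 2-fold, are not.

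The urokinase receptor had 2 probe sets with a large difference and 1 with a small one. Probe set 210845_s_at of PLAUR read 2099 with CTNNB1 siRNA and 729 with control siRNA, a log2 ratio of 1.53. Probe set 211924_s_at had the highest ratio of the members, 1.84 or 3.58-fold, with signals of 1033 on the CTNNB1 siRNA array and 288 on the control array. Probe set 214866_at read 330 on the CTNNB1 siRNA array and 214 on the control array, a log2 ratio of 0.62 or 1.54-fold, under the 2-fold rule. All 3 were brighter with CTNNB1 siRNA, but their ratios spanned 1.22 on the log2 scale. A wider span was seen in 521 of the 5791 genes, 9.0%. Which PLAUR transcripts each probe set reads is not given in the sources used here.

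Tissue plasminogen activator was dimmer and had a single probe set. Probe set 201860_s_at of PLAT read 185 on the CTNNB1 siRNA array and 75.9 on the control array, a log2 ratio of 1.29. With no second probe set, this value had no check within the gene. Ratios scatter more at such signals. Among probe sets of the same decile of mean signal (103 to 144) the SD of log2 ratios was 0.55, and 4.71% were at least 2-fold higher. In decile 9 (904 to 1827), where both PLAU probe sets and the brightest of PLAUR lie, the SD was 0.34 and 2.14% were at least 2-fold higher.

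The inhibitor gene SERPINE2 did not pass the 2-fold rule. Probe set 212190_at read 92.5 with CTNNB1 siRNA and 63.6 with control siRNA, a log2 ratio of 0.54. Probe set 227487_s_at, under the signal filter, read 29.9 on the CTNNB1 siRNA array and 15.0 on the control array, or 1.99-fold, close to the floor of 13.8 set for low values. Both were brighter with CTNNB1 siRNA. The first ratio lay 0.60 above the median of probe sets of its signal (77 to 103), which is the SD of the log2 ratios of those probe sets. No ratio of activator to inhibitor was formed, because signals of different probe sets cannot be set against each other.

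Ratios also depended on signal across the whole array, and the members were read against probe sets of like brightness. The median log2 ratio was -0.15 in the dimmest decile, 0.28 in decile 9 and 0.26 in the brightest. Relative to the median of its own decile, PLAU was higher by 1.31 (205479_s_at) and 1.37 (211668_s_at). PLAUR was higher by 1.61 (211924_s_at), 1.25 (210845_s_at) and 0.46 (214866_at). PLAT was higher by 1.24 and SERPINE2 by 0.60. In decile 9, which holds 2715 probe sets, 8 had a higher ratio than PLAU 205479_s_at, 7 than PLAU 211668_s_at and 9 than PLAUR 210845_s_at. For PLAUR 211924_s_at, 2 of the 2715 in its own decile were higher. For PLAT 55, for PLAUR 214866_at 391 and for SERPINE2 421 of the 2715 in their deciles were higher. Such counts also describe the choice, since the members were picked with their ratios known.

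**Figure D2:**
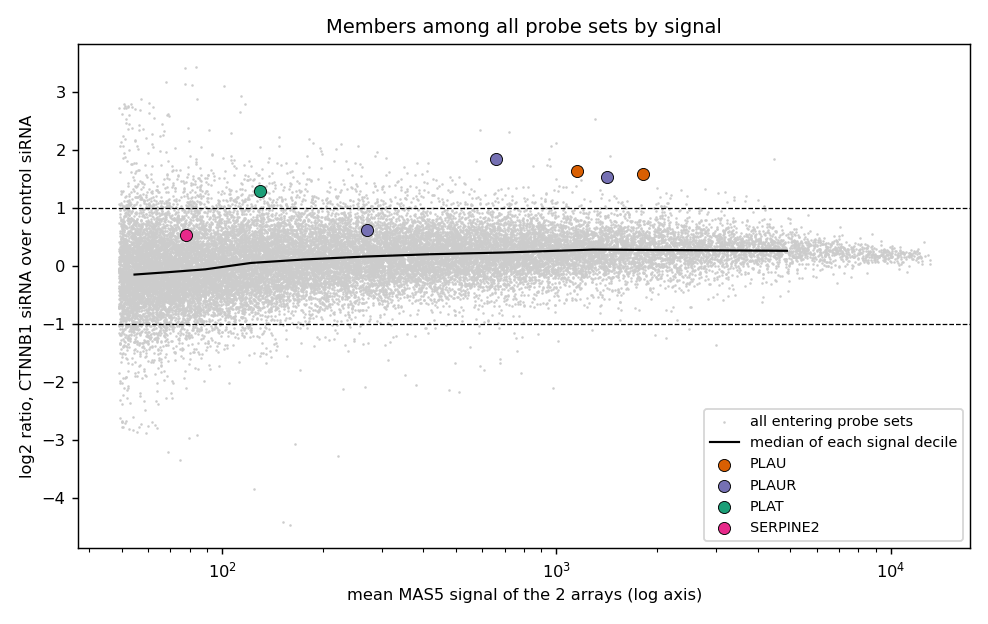
Log2 ratio of CTNNB1 siRNA over control siRNA against the mean signal of the 2 arrays (log axis) for the 27151 probe sets past the filter (grey), with the median of each signal decile as a black line and the 7 member probe sets in colour. Dashed lines mark 2-fold; 4 points of PLAU and PLAUR stand above the cloud at high signal, PLAT lies above 2-fold where the cloud is wider, and SERPINE2 and 214866_at of PLAUR lie below the upper line.

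With each gene represented by its brightest probe set, the log2 ratio of PLAU ranked 44 of 12531 genes from the top. That of PLAUR ranked 53, that of PLAT 115 and that of SERPINE2 1683. These ranks too belong to genes picked with their ratios known. Of all genes, 2.29% were at least 2-fold higher and 2.38% at least 2-fold lower, and the median log2 ratio was 0.15. Over 5 other ways of scaling the arrays, the ranks ran from 40 to 97 for PLAU, from 49 to 110 for PLAUR, from 102 to 122 for PLAT and from 754 to 1700 for SERPINE2. The log2 ratio of PLAU 205479_s_at ran from 1.31 to 1.72 over these scalings and 2 other treatments of low signals, that of PLAUR 210845_s_at from 1.26 to 1.66 and that of PLAT from 1.07 to 1.42. All 3 genes were at least 2-fold higher in each of these 7 settings. Centring shifted every ratio by the same amount, so it could not change a rank. A common median and a common trimmed mean also rescale whole arrays, so ranks could move little there. PLAU 205479_s_at lay 1.43 and 1.44 above the median of all genes in these settings, against 1.44 as deposited. The floor at the median lay under the signals of these 3 genes, so it could not change their ratios. PLAUR 214866_at stayed between 0.41 and 0.76 and SERPINE2 212190_at between 0.33 and 0.68, under 2-fold in each.

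**Figure D3:**
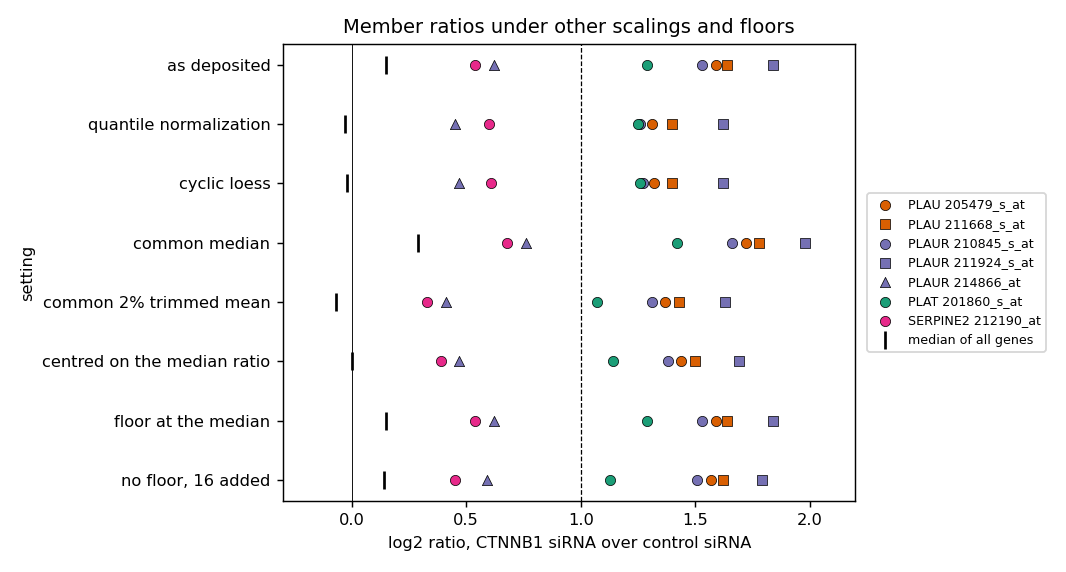
Log2 ratio of CTNNB1 siRNA over control siRNA of the 7 member probe sets (colour by gene, shape by probe set) as deposited and in 7 other settings, with the median of all genes as a vertical tick and 2-fold as a dashed line. Most points shift with the median of all genes (from -0.07 with a common trimmed mean to 0.29 with a common median), and none crosses the dashed line.

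The genes nearest to the members in signal on both arrays were found by distance on the log2 scale, over 2 arrays and 12531 genes. For PLAUR these were PTX3 (2039 with CTNNB1 siRNA and 736 with control siRNA, a distance of 0.04), FOSL1 (0.16) and FKBP4 (0.28). For PLAU they were SRRM2, DGCR2 and MAP3K2, at 0.33 to 0.39. For PLAT they were SHISAL1, SOCS3 and E2F5, at 0.08 to 0.17. With 2 points a gene, this measure holds no more than a level and a ratio.

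The genes of the 7 other lists, which include transcription factors, had a median ratio close to that of all genes. Of 83 other genes in 7 lists by role, 79 had a probe set of their own and 58 passed the filter, of which 4 (6.9%) were at least 2-fold higher and 3 (5.17%) at least 2-fold lower. Over all genes these shares were 2.29% and 2.38%. The AP-1, ETS and NF-kB factors gave 3 of the higher genes and 1 of the lower. The median log2 ratio of the 58 genes was 0.20, against 0.15 over all genes, and 31 lay above and 27 below that median.

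Plasminogen and most of the secreted inhibitors were under the signal filter. PLG, the plasminogen gene, had no probe set with a mean signal over 12.2, and KLKB1, the gene of plasma kallikrein, none over 10.3. SERPINF2, which encodes the main plasmin inhibitor of blood, reached 29.1, and SERPINI1 (neuroserpin) and CPB2 reached 16.9 and 1.85. SERPINB6 had no probe set under its symbol alone and was not analysed here. Of the 7 inhibitor genes, 2 passed the filter. A2M, a broad protease trap, read 59.7 with CTNNB1 siRNA and 112 with control siRNA, a log2 ratio of -0.91. Its other probe set (217757_at) was under the floor on both arrays, at 1.5 with CTNNB1 siRNA and 9.6 with control siRNA. SERPINB8 had a log2 ratio of 0.25.

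Among the other serpins, 7 of 12 passed, 0 were past 2-fold in either direction and the median log2 ratio was -0.04. SERPINB3 (-0.87), SERPINB9 (0.66) and SERPINA1 (-0.47) had the largest log2 ratios. All other probe sets of SERPINB3 and SERPINA1 were under the filter. SERPINB9, an inhibitor of granzyme B, read 1466 on the CTNNB1 siRNA array and 930 on the control array, and its dimmest probe set (209722_s_at) had a log2 ratio of 1.17. Of the 10 genes of plasminogen and of proteases that act on it or on pro-urokinase, 5 passed, and none was past 2-fold. CTSL, a lysosomal protease gene, had a log2 ratio of 0.52, F11 of -0.51 and F12 of 0.32. The other probe sets of F11 and F12 were under the floor on both arrays.

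The list of plasminogen-binding proteins had 6 of 7 genes past the filter, 1 of them lower by 2-fold and 0 higher. PLGRKT, a membrane receptor for plasminogen, was 2.83-fold lower, with 68.3 on the CTNNB1 siRNA array and 193 on the control array in its single probe set (218992_at). ANXA2 and S100A10, which form a complex that binds plasminogen and tissue plasminogen activator, had log2 ratios of 0.09 and -0.19, and the enolase gene ENO1 had 0.20 (-0.11 after loess and -0.01 with a common trimmed mean). RUVBL2, an ATPase gene whose link to plasminogen is uncertain, had 0.55 (4705 with CTNNB1 siRNA and 3213 with control siRNA). A second S100A10 probe set had 0.63.

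Of 17 genes whose proteins bind, internalise or resemble urokinase or its receptor, 14 passed, with 1 higher and 1 lower by 2-fold. ITGA3, an integrin subunit reported to pair with the urokinase receptor, was 2.52-fold higher, with 311 on the CTNNB1 siRNA array and 124 on the control array. VLDLR, an endocytic receptor that takes up protease and serpin complexes, was 2.38-fold lower, with 115 on the CTNNB1 siRNA array and 274 on the control array. LRP1 and IGF2R, which also clear components of the system, had log2 ratios of 0.36 and 0.32. LYPD3, a relative of the urokinase receptor, had -0.60, and the integrin subunits ITGB1, ITGAV and ITGA5 had 0.37, 0.39 and -0.09. The 4 ITGB1 probe sets past the filter ran from -0.32 to 0.78, and the 3 of IGF2R from 0.32 to 0.85. EGFR, the epidermal growth factor receptor gene, had 0.46, with up to 1.59 among its 6 probe sets past the filter. Both ITGA3 and VLDLR were measured by 1 probe set past the filter.

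Of 17 substrates and effectors of plasmin, 12 passed and 0 were past 2-fold. MST1, encoding a growth factor activated by cleavage, had the largest ratio (0.86, with 1.12 in its other probe set, 205614_x_at). TGFB1 (0.79) and the membrane metalloproteinase gene MMP14 (-0.79) followed. The other MMP14 probe sets were under the filter, the brightest (202827_s_at) at 20.5 with CTNNB1 siRNA and 20.2 with control siRNA. MMP9 had 0.58 and MMP10 -0.58. MET, the receptor gene of hepatocyte growth factor, had 0.64, and its 3 probe sets past the filter ran from 0.19 to 1.42. FN1, the fibronectin gene, had -0.44, but its 5 probe sets past the filter ran from -2.74 to 0.38.

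AP-1, ETS and NF-kB factors are known to act on PLAU or PLAUR, and 12 of the 13 listed genes passed, 3 higher and 1 lower by 2-fold. FOSL1, an AP-1 subunit, was 2.47-fold higher, with 1919 on the CTNNB1 siRNA array and 777 on the control array. JUN was 2.24-fold higher (921 with CTNNB1 siRNA and 411 with control siRNA) and ETS1 2.29-fold higher (2848 with CTNNB1 siRNA and 1245 with control siRNA). Both lay under 2-fold in 3 of 11 alternative settings, with log2 ratios down to 0.94 and 0.92. The 3 ETS1 probe sets ran from -0.18 to 1.19, and the JUN probe sets past the filter from 0.33 to 1.29. ETV4 was 2.0-fold lower, with 158 on the CTNNB1 siRNA array and 317 on the control array, and lay under 2-fold in 3 of 11. Its other probe set (1554576_a_at) had a log2 ratio of -0.95. ETS2 (0.81, and 0.80 in its other probe set past the filter) was under the rule. So were FOS (-0.26), FOSL2 (-0.13, up to 1.45 in its other probe sets), JUNB (0.21) and RELA (0.01).

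**Figure D4:**
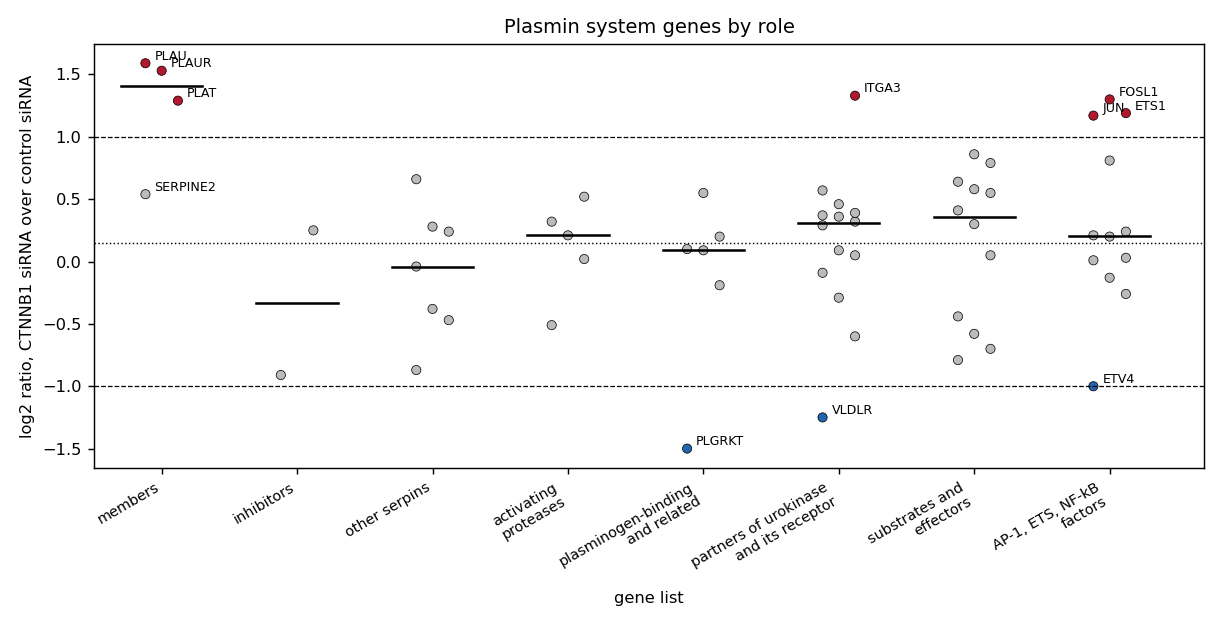
Log2 ratio of CTNNB1 siRNA over control siRNA of each gene past the filter by list (1 point a gene, horizontal bars for list medians), with 2-fold as dashed lines and the median of all genes, 0.15, as a dotted line. Red points are at least 2-fold higher and blue points at least 2-fold lower; outside the members these are ITGA3, FOSL1, JUN and ETS1 (higher) and PLGRKT, VLDLR and ETV4 (lower).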

How the data were processed

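HCC15 cells were measured on 2 biotin-labelled expression arrays, 1 per group. The deposited values are linear signal intensity values per probe set, made by the authors with MAS5, per the submitters' processing notes. No source used here gives its version, target intensity or detection calls. Medians were 46.7 (CTNNB1 siRNA) and 51.3 (control) and 2% trimmed means 271 and 233. Genes were named from the platform annotation (41097 probe sets with 1 symbol) and updated to RefSeq.

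Log2 ratios were computed as deposited, after signals under the 25th percentile (13.8) were set to that floor. A probe set passed the filter at a mean signal of 49.1, the median of all values, and the brightest one past it stood for its gene. Genes were counted at 2-fold. Every member probe set was named, CTNNB1, and in each other list the genes past 2-fold and the 3 largest ratios; other genes named were chosen after their values were seen. The members and lists were chosen with earlier results of these data known. The number of arrays limits precision. Calculations were tested on simulated data. Python 3.11.15, pandas 2.3.3, R 4.3.3 and limma 3.58.1 were used.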

Additional observations from a re-analysis of the deposited data

How the results depend on the processing

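The log2 ratios of PLAU, PLAUR, PLAT and SERPINE2 and the counts of member probe sets kept their direction and their side of 2-fold in every alternative in which they could be computed; PLAT and SERPINE2 did not pass with the filter at the 75th percentile. The floor at the median lay under the signals of the brightest probe sets of these genes, and a change of filter does not alter a ratio. Those settings therefore could not move the 4 gene ratios. Member probe sets at least 2-fold higher numbered 4 to 6. CTNNB1 was at -0.97 with the median over its probe sets. Genes of the other lists, transcription factors included, at least 2-fold higher numbered 4 as deposited. They numbered 2 after quantile normalization, after loess and with a common trimmed mean. The count was 9 at 1.5-fold and where the most changed probe set stood for a gene. Those at least 2-fold lower numbered 3 as deposited, 6 with a common trimmed mean, 5 after centring, 1 with the filter at the 75th percentile, 6 without a filter and 8 at 1.5-fold. Over all genes, the higher and lower counts were 287 and 298 as deposited, and depended on the setting. The higher count was 472 with a common median, 128 with a common trimmed mean, 163 after centring, 139 with the filter at the 75th percentile, 721 without a filter, 679 with the most changed probe set and 1409 at 1.5-fold. The lower count was 183, 543, 448, 34, 1271, 477 and 953 in the same settings, 160 with the floor at the median and 155 with 16 added in place of a floor. The share of lower genes among calls was 50.9% as deposited, 27.9% with a common median, 73.3% after centring and 80.9% with a common trimmed mean. Fewer genes were tested with the higher filter and more without one, and a 1.5-fold rule can only add to both counts. The median log2 ratio of all genes was 0.15 as deposited. It was 0.29 with a common median, 0.0 after centring and -0.07 with a common trimmed mean. Otherwise the cause was not tested. No paired analysis was possible because each group is 1 array. Changes in dim genes are limited by signal, since no detection calls were at hand.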
